A study of Mus musculus with 18 samples.

Results

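A total of 39 genes that copy DNA and carry cells from G1 into S phase were followed in 18 RNA-Seq libraries of mouse colonic epithelium. They are a list of names, of subunits and regulators of the replication machinery, which uses no measured value in its rule but was drawn up with earlier results of these data known. All 39 of the 39 were found among the 55453 genes in the count tables, and all 39 passed the filter on low counts that kept 20787 genes for testing. The libraries came from female Swiss Webster mice that had all received azoxymethane (AOM), a colon carcinogen, at 7 weeks of age, and 4 cycles of dextran sulfate sodium (DSS), an irritant of the gut surface that brings on colitis, from 9 weeks. Each cycle gave 2% DSS in the drinking water for 7 days and plain water for 14 days. The mice ate chow with 2 mg/kg folic acid (FA) at baseline, and from 11 weeks of age chow with 8 mg/kg FA or with 0 mg/kg FA for 16 weeks, until 27 weeks. Epithelium was cut out of fixed, embedded sections with a laser, either from polypoid dysplasia (P) or from mucosa without dysplasia (ND). The groups were polypoid dysplasia at 8 mg/kg FA (8P, n = 5), polypoid dysplasia at 0 mg/kg FA (0P, n = 4), non-dysplastic epithelium at 8 mg/kg FA (8ND, n = 5) and non-dysplastic epithelium at 0 mg/kg FA (0ND, n = 4). Dysplasia here was induced by a chemical and by colitis, and a library holds whatever lay inside the laser outline. The labels number the libraries without saying which animals they share, so the p-values below measure the spread between these libraries.

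Copying of the genome starts at origins, where the origin recognition complex, Cdc6 and Cdt1 load the ring-shaped Mcm helicase onto DNA during G1. At the G1/S boundary cyclin E and its kinase release E2F factors from the retinoblastoma protein, E2F raises transcription of many replication genes, and Cdc45 and the GINS complex turn the loaded helicase on. Polymerases, the sliding clamp and nucleotide supply then carry the fork forward. In the colon this activity is normally found near the base of the crypts, where cells divide.

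Of the 39 genes, 18 rose in polypoid dysplasia against non-dysplastic epithelium on the diet without FA and 9 at 8 mg/kg FA, and the rest did not pass the test. In 0P vs 0ND, 18 of 39 genes were higher and 0 were lower by edgeR's quasi-likelihood test at an adjusted p under 0.05 (46.2% of the genes, where 15.9% of all tested genes were called higher and 15.7% lower). In 8P vs 8ND, 9 of 39 were higher and 0 were lower (23.1% of the genes, where 13.9% of all tested genes were called higher and 14.3% lower). All 9 were among the 18. The median log2 fold change over the 39 genes was 0.54 in 0P vs 0ND, where that over all tested genes was -0.03, and 0.27 in 8P vs 8ND, where that over all tested genes was 0.00. A total of 36 of the 39 fold changes lay above 0 in 0P vs 0ND and 32 in 8P vs 8ND, but most were modest, since 3 genes (Ccne1, Rrm2 and Gins1) and 1 gene (Gins1) were both called and at least 2-fold higher. Of all tested genes, 47.6% and 50.1% lay above 0. At an unadjusted p under 0.05 there were 24 genes in 0P vs 0ND (61.5%, against 40.9% of all tested genes in either direction) and 10 genes in 8P vs 8ND (25.6%, against 38.6%). No gene passed in 8P vs 0P, in 8ND vs 0ND, or in the test of whether the dose effect differed between P and ND.

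**Figure D1:**
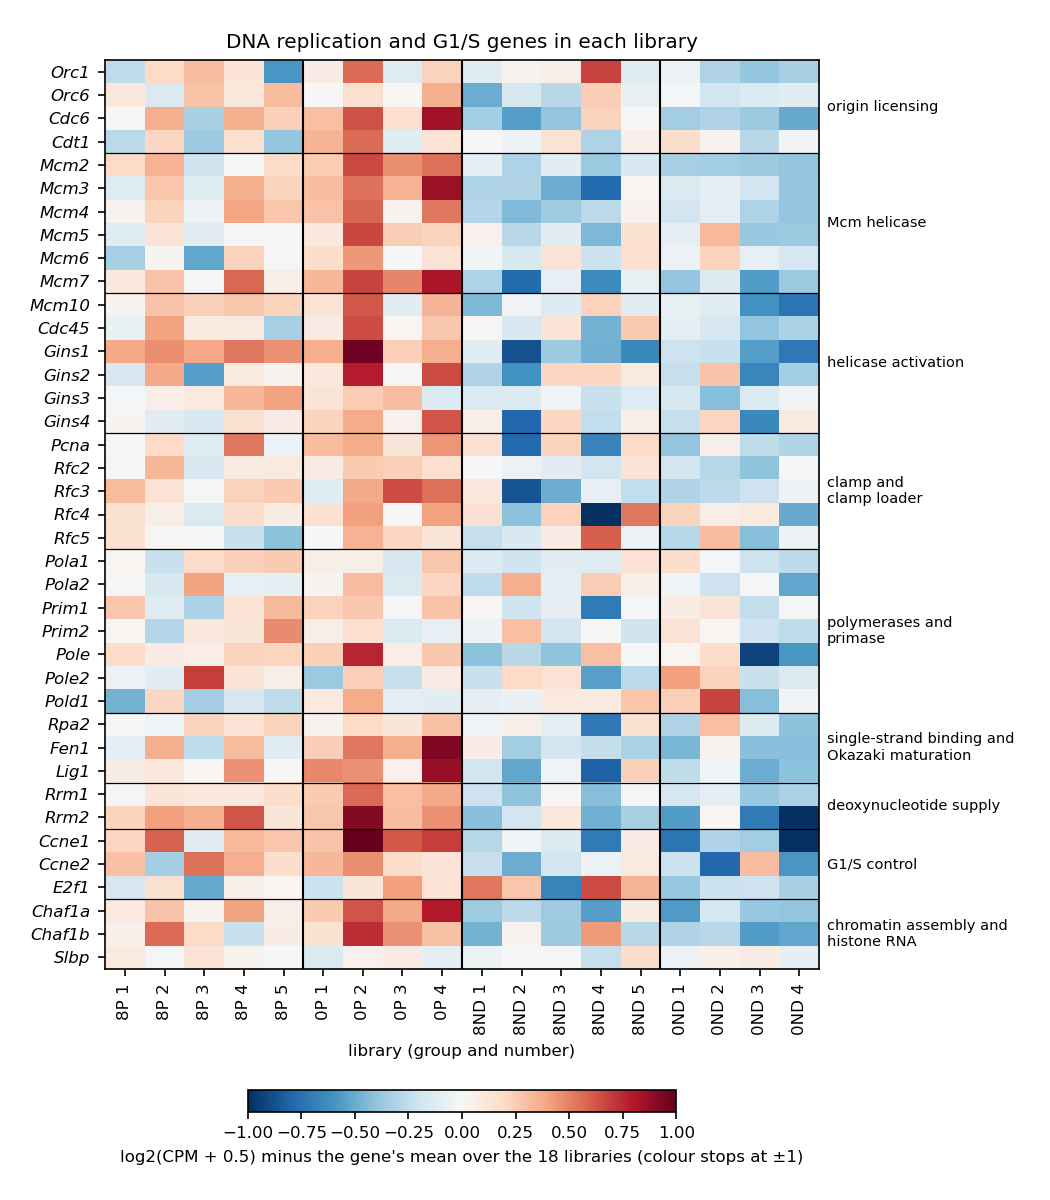
Heat map of the 39 genes (rows, grouped by role) in the 18 libraries (columns). Colour is log2(CPM + 0.5) minus the gene's own mean over the libraries, red above and blue below, with the scale stopped at ±1; 0P 2 is above the mean in all 39 rows, and the rows of Slbp and Pola1 are pale in every group.

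Levels are given as CPM, the reads of a gene relative to all reads on genes in its library, scaled by the trimmed mean of M values (TMM) so that libraries can be compared. Total counts on genes ran from 3500947 in 8ND 4 to 17048524 in 0P 4, and the lowest count of any of the 39 genes in any library was 6 reads, for Rfc4 in 8ND 4, so the values of the weakest genes in that library rest on few reads. The summed level of the 39 genes was 759 to 890 CPM in the 8P libraries, 841 to 1049 CPM in 0P, 634 to 778 CPM in 8ND and 599 to 743 CPM in 0ND. The groups overlapped narrowly, since 8ND 5 (778 CPM) lay above 8P 1 and 8P 3 (762 and 759 CPM), whereas each 0P library lay above each 0ND library. Library 0P 2 had every one of the 39 genes above its own mean over the 18 libraries, and 0ND 4 had 1. Per kilobase of exon, mean levels over the 18 libraries ran from 13.2 CPM per kb for Pcna to 1.63 CPM per kb for Gins2, with a median of 2.94. Each of the 38 pairs of neighbours in that order differed by no more than 1 SD between libraries, so the order is only a rough one. Length was that of all GENCODE exons of a gene merged, while the methods name RefSeq genes for the counts. The order thus also depends on annotated length.

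The sequences around the transcript starts of these genes were examined for the E2F motif, because E2F factors are the textbook regulators of this gene set. RefSeq promoter windows of GRCm38.p6, from 250 bases before to 50 bases after a transcript start, were found for 31 of the 39 genes (35 windows). The letters searched were TTTCCCGC, TTTCGCGC, TTTGCCGC and TTTGGCGC, on both strands. They were present in the windows of 13 of the 31 genes (41.9%) and in 37.1% of the 35 windows, against 2.26% of all 32851 windows and 3.44% of the 16185 windows of tested genes. The matched stretch farthest upstream in each of the 13 genes is shown with its flanks to let the sites be compared, the match in capitals and any further match that touches the stretch also in capitals.
Cdc6 (chr11:98908003-98908030, plus strand): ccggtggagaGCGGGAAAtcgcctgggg
Cdt1 (chr8:122568037-122568064, plus strand): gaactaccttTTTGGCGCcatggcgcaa
Gins3 (chr8:95633508-95633535, plus strand): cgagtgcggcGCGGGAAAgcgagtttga
Lig1 (chr7:13278842-13278869, plus strand): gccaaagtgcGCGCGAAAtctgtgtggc
Mcm3 (chr1:20820276-20820303, minus strand): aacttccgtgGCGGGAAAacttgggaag
Mcm5 (chr8:75109346-75109373, plus strand): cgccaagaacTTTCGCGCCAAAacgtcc
Mcm6 (chr1:128359798-128359825, minus strand): ggcgtatgctTTTGGCGCGAAAagtgcg
Mcm7 (chr5:138172031-138172058, minus strand): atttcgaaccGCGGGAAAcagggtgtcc
Orc1 (chr4:108579417-108579444, plus strand): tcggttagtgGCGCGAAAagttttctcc
Pola1 (chrX:93632276-93632303, minus strand): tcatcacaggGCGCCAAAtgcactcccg
Pold1 (chr7:44548766-44548786, minus strand): gtatcttgtgGCGGGAAAagc
Pole2 (chr12:69228163-69228190, minus strand): gtcggcggtgGCGCCAAAtcgcgaacat
Rfc3 (chr5:151651201-151651228, minus strand): cgtcgcacgcTTTCGCGCtcGCGGGAAA
The stretches of Mcm5, Mcm6 and Rfc3 held 2 matches each, which overlapped on opposite strands in Mcm5 and Mcm6 and lay side by side in Rfc3. In Cdt1, Lig1, Mcm3, Pold1 and Pole2 the match shown began downstream of the transcript start, by 32, 26, 19, 39 and 10 bases. Of the 13 genes with a match, 5 were called higher in 0P vs 0ND and 3 in 8P vs 8ND, with median log2 fold changes of 0.44 and 0.28. Of the 18 genes with a window and no match, 9 and 4 were called, with medians of 0.55 and 0.26. Of all tested genes, 15.9% and 13.9% were called higher. The start used was the outer edge of the RefSeq gene in 22 of the 35 windows. A gene without a match may therefore hold one near a start that was not searched. The search also took exact words only, so a stretch that differed from them by a letter was counted as no match. The window of E2f1, counted without a match, lay wholly inside the gene (chr2:154569377-154569676, minus strand, against a GENCODE end of 154569892). The windows that held the matches of Cdc6, Lig1 and Mcm7 lay wholly inside their genes too. GENCODE puts the starts of Cdc6 and Lig1 at 98907801 and 13277283 and the end of Mcm7 at 138172422. Genes that rose were found with and without a match, and 3 upstream stretches of 250 bases are shown as examples. Mcm6 had 3 matches and passed no test, while Mcm2 and Rrm2 passed in both comparisons of P with ND and had none. In these 3 examples match and call differed, whereas Mcm3, Mcm7 and Rfc3 had a match and passed in both comparisons.
Mcm6 (chr1:128359706-128359955, minus strand): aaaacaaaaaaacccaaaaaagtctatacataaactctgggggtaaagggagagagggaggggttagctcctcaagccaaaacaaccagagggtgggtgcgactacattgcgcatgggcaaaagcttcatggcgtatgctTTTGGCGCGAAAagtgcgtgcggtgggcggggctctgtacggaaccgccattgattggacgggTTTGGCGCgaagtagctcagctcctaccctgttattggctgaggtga
Mcm2 (chr6:88898781-88899030, minus strand): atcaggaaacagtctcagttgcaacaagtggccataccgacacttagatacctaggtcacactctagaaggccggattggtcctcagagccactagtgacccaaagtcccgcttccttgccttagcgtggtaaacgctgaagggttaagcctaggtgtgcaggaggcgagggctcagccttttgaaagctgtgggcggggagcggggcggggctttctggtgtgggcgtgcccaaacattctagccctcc
Rrm2 (chr12:24708004-24708253, plus strand): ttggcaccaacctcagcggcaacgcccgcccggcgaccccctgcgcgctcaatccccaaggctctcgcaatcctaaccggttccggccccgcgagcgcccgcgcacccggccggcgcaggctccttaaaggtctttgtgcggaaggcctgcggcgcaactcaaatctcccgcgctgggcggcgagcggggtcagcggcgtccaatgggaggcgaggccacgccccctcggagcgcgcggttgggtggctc
CCAAT, the letters bound by the factor NF-Y, was found in 57.1% of the 35 windows, against 37.4% of all windows and 37.3% of those of tested genes. TTTGAA, the cell cycle homology region of mitotic genes, was found in 11.4% of the 35, near the 13.5% of windows of tested genes. Its share was 17.9% of all windows and 71.9% of the 32 windows of the mitosis list described below. Neither of these words contains an E2F word or is contained in it. A match is a description of the sequence and not evidence that a factor was bound.

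Origin licensing was represented by Orc1, Orc6, Cdc6 and Cdt1, of which 1 passed in 0P vs 0ND and 0 in 8P vs 8ND. The shares were 25.0% and 0.0%, against 15.9% and 13.9% of all tested genes called higher. Cdc6, the loader of the Mcm ring, had 8.30, 10.9, 6.58, 10.8 and 9.93 CPM in 8P, 10.4, 13.2, 9.47 and 15.3 in 0P, 6.50, 5.55, 6.23, 9.88 and 8.32 in 8ND, and 6.44, 6.70, 6.39 and 5.74 in 0ND. Its 0P libraries all lay above its 0ND libraries, and 8P overlapped 8ND. The log2 fold change was 0.94 ± 0.21 in 0P vs 0ND (edgeR adjusted p = 0.00205) and 0.37 ± 0.19 in 8P vs 8ND (edgeR adjusted p = 0.161). Orc6, a subunit of the origin recognition complex and the most abundant of the 4 by CPM, had 11.7, 9.69, 13.2, 11.7 and 13.5 CPM in 8P, 10.7, 12.1, 10.8 and 13.9 in 0P, 7.47, 9.59, 8.80, 12.8 and 10.2 in 8ND, and 10.6, 9.35, 9.71 and 9.96 in 0ND. Every 0P value stood above every 0ND value here too, but by little, and the fold change of 0.26 ± 0.17 on the log2 scale did not pass (edgeR adjusted p = 0.252). Orc1, the large ATPase subunit of that complex, had 5.49, 7.73, 8.37, 7.32 and 4.27 CPM in 8P, 7.04, 10.0, 6.04 and 7.90 in 0P, 6.08, 6.82, 6.98, 10.9 and 6.06 in 8ND, and 6.37, 5.29, 4.97 and 5.20 in 0ND. A single library, 8ND 4, carried its highest value, and the log2 fold changes were 0.50 ± 0.24 in 0P vs 0ND and -0.13 ± 0.21 in 8P vs 8ND. Cdt1, the partner of Cdc6 in loading, had 6.90, 9.80, 6.42, 9.43 and 6.31 CPM in 8P, 10.7, 12.6, 7.68 and 9.27 in 0P, 8.43, 8.08, 9.34, 6.67 and 8.73 in 8ND, and 9.56, 8.64, 6.87 and 8.23 in 0ND. The groups overlapped throughout, with log2 fold changes of 0.28 ± 0.20 in 0P vs 0ND and -0.10 ± 0.18 in 8P vs 8ND.

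The Mcm helicase unwinds DNA ahead of the fork. Of the 6 genes, Mcm2, Mcm3, Mcm4 and Mcm7 were higher in both comparisons of P with ND, whereas Mcm5 and Mcm6 passed in neither. The share was 66.7% in each, against 15.9% and 13.9% of all tested genes called higher in 0P vs 0ND and 8P vs 8ND. Mcm2 (chr6:88883474-88898780, mm10) had the smallest p of the 39 genes in 0P vs 0ND. Its levels were 31.2, 34.6, 23.6, 27.2 and 30.9 CPM in 8P, 32.5, 43.2, 37.6 and 39.9 in 0P, 25.4, 21.8, 25.1, 20.8 and 24.3 in 8ND, and 21.5, 21.3, 20.96 and 20.5 in 0ND. The 0ND libraries were tightly grouped, every 0P library lay above them, and 8P overlapped 8ND only through 8P 3. The log2 fold change was 0.86 ± 0.13 in 0P vs 0ND (edgeR adjusted p = 4.82e-05) and 0.32 ± 0.11 in 8P vs 8ND (edgeR adjusted p = 0.0397). Mcm7 (chr5:138164583-138172422) had 39.1, 44.5, 36.4, 54.4 and 38.1 CPM in 8P, 46.0, 58.4, 51.3 and 64.1 in 0P, 29.3, 21.2, 34.3, 23.2 and 34.5 in 8ND, and 27.7, 33.0, 24.6 and 28.0 in 0ND. P stood clear of ND on both diets, with log2 fold changes of 0.96 ± 0.17 in 0P vs 0ND and 0.57 ± 0.15 in 8P vs 8ND (edgeR adjusted p = 0.000251 and 0.00779). Mcm3 averaged 33.6 ± 5.32 CPM in 8P and 23.9 ± 4.92 CPM in 8ND (SD, n = 5 each), and 44.4 ± 8.24 CPM in 0P and 26.6 ± 2.35 CPM in 0ND (SD, n = 4 each). Mcm4 averaged 40.1 ± 5.09 CPM in 8P and 29.4 ± 4.04 CPM in 8ND, and 45.8 ± 7.79 CPM in 0P and 29.7 ± 2.71 CPM in 0ND. For both genes each 0P library exceeded each 0ND library, and 8P overlapped 8ND through 8ND 5. Their log2 fold changes in 0P vs 0ND were 0.74 ± 0.17 for Mcm3 and 0.63 ± 0.14 for Mcm4, and in 8P vs 8ND 0.48 ± 0.15 and 0.45 ± 0.13.

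Mcm6, the most abundant of the Mcm genes by CPM and by CPM per kb (11.0), had 40.3, 51.8, 35.3, 59.7 and 50.5 CPM in 8P, 57.6, 68.9, 51.0 and 56.1 in 0P, 49.8, 45.5, 56.3, 43.8 and 57.0 in 8ND, and 48.7, 59.8, 48.0 and 45.0 in 0ND. Its groups overlapped on both diets, with log2 fold changes of 0.22 ± 0.15 in 0P vs 0ND and -0.09 ± 0.14 in 8P vs 8ND (edgeR adjusted p = 0.305 and 0.666). Mcm5 fell just short in 0P vs 0ND, at 0.44 ± 0.17 (edgeR adjusted p = 0.0554), and was at 0.09 ± 0.15 in 8P vs 8ND. A subunit that passed and a subunit that did not were not tested against each other.

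Helicase activation was covered by Mcm10, Cdc45 and the 4 GINS genes, with 3 of 6 called in 0P vs 0ND and 1 of 6 in 8P vs 8ND. Gins1 (chr2:150905400-150931280), a GINS subunit, was at least 2-fold higher in P on both diets and had the smallest p of the 39 genes in 8P vs 8ND. It had 4.28, 4.57, 4.31, 4.78 and 4.55 CPM in 8P, 4.23, 6.70, 3.84 and 4.23 in 0P, 2.90, 1.51, 2.36, 2.14 and 1.85 in 8ND, and 2.68, 2.65, 2.01 and 1.73 in 0ND. The 8P values were the most even of the 4 groups and stood clear of 8ND, and 0P 2 was far above the other 0P libraries. The log2 fold change was 1.07 ± 0.25 in 0P vs 0ND (edgeR adjusted p = 0.00262) and 1.08 ± 0.23 in 8P vs 8ND (edgeR adjusted p = 0.00151). The other GINS genes did not pass, and their log2 fold changes in 0P vs 0ND were 0.69 ± 0.27 for Gins2, 0.35 ± 0.17 for Gins3 and 0.47 ± 0.22 for Gins4. In 8P vs 8ND they were 0.05 ± 0.25 for Gins2, 0.34 ± 0.15 for Gins3 and 0.11 ± 0.20 for Gins4. Gins3 nevertheless had all of its 8P values above its 8ND values. Mcm10, which helps start unwinding, had 18.3, 22.0, 21.3, 21.7 and 20.97 CPM in 8P, 19.7, 27.8, 16.6 and 22.8 in 0P, 13, 17.5, 16.3, 21.1 and 16.5 in 8ND, and 17.0, 16.6, 11.6 and 10.6 in 0ND. Its 0P and 0ND libraries overlapped through 0P 3, and the log2 fold change was 0.64 ± 0.18 in 0P vs 0ND (edgeR adjusted p = 0.0108) and 0.31 ± 0.16 in 8P vs 8ND. Cdc45, the helicase cofactor, passed narrowly in 0P vs 0ND at 0.55 ± 0.20 (edgeR adjusted p = 0.0452) and was at 0.07 ± 0.18 in 8P vs 8ND.

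**Figure D2:**
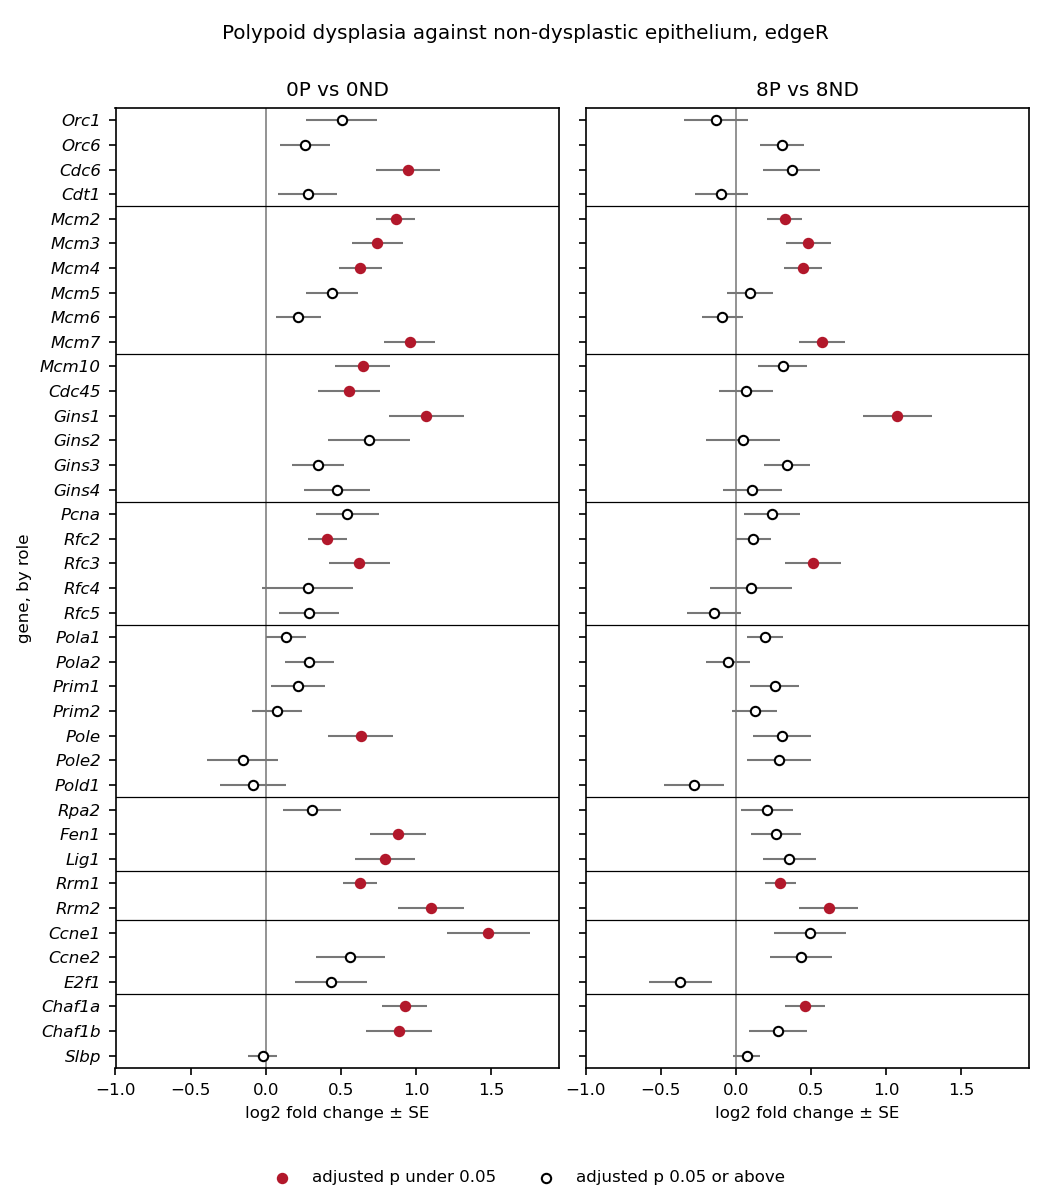
Log2 fold change of each of the 39 genes (points) with its SE (bars), from edgeR, in 0P vs 0ND on the left and 8P vs 8ND on the right; genes run down the page by role, and filled points have an adjusted p under 0.05. The 18 filled points on the left run from 0.41 (Rfc2) to 1.48 (Ccne1), and the 9 on the right from 0.29 (Rrm1) to 1.08 (Gins1).

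Pcna is the sliding clamp that holds polymerases on DNA, and the Rfc genes encode the loader that opens it. Pcna, the most abundant of the 39 genes per kb, had 30.6, 35.4, 28.0, 44.6 and 29.4 CPM in 8P, 38.2, 39.9, 33.5 and 41.8 in 0P, 34.2, 17.7, 35.8, 19.2 and 34.9 in 8ND, and 23.2, 32.1, 25.7 and 24.9 in 0ND. Each 0P value lay above each 0ND value, yet the fold change of 0.54 ± 0.21 did not pass (edgeR adjusted p = 0.0558), and of the 8ND libraries 8ND 2 and 8ND 4 lay below the 8P range and the other 3 within it. Rfc2 had 19.7, 25.1, 17.8, 21.2 and 21.2 CPM in 8P, 21.04, 23.9, 23.5 and 22.4 in 0P, 19.8, 19.1, 18.5, 17.4 and 21.9 in 8ND, and 17.4, 16.2, 14.9 and 19.7 in 0ND. It was clear of overlap in 0P vs 0ND, with a log2 fold change of 0.41 ± 0.13 (edgeR adjusted p = 0.0202), and was at 0.12 ± 0.12 in 8P vs 8ND. Rfc3 passed in both comparisons, at 0.62 ± 0.20 in 0P vs 0ND (edgeR adjusted p = 0.0247) and 0.51 ± 0.18 in 8P vs 8ND (edgeR adjusted p = 0.0432). Rfc4 was at 0.28 ± 0.30 in 0P vs 0ND and 0.10 ± 0.27 in 8P vs 8ND. Rfc5 had 12.5, 11.2, 11.1, 9.50 and 8.26 CPM in 8P, 11.2, 14.3, 13.03 and 12.2 in 0P, 9.40, 9.99, 11.8, 17.1 and 10.7 in 8ND, and 9.05, 13.9, 8.17 and 10.7 in 0ND. Its highest library was 8ND 4, its groups overlapped, and its log2 fold changes were 0.29 ± 0.20 in 0P vs 0ND and -0.15 ± 0.18 in 8P vs 8ND.

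Among the polymerases and primase 1 of 7 genes passed in 0P vs 0ND and 0 of 7 in 8P vs 8ND, with medians of 0.13 and 0.19. That is 14.3% and 0.0%, near or below the 15.9% and 13.9% of all tested genes called higher. Pole, the catalytic subunit of polymerase epsilon on the leading strand, had 31.5, 29.4, 29.1, 32.4 and 32.3 CPM in 8P, 32.7, 47.2, 28.9 and 33.5 in 0P, 20.7, 22.7, 20.8, 34.2 and 27.5 in 8ND, and 28.0, 31.6, 14.3 and 18.3 in 0ND. The ND libraries ranged widely, 0P overlapped 0ND through 0P 3, and the log2 fold change was 0.63 ± 0.21 in 0P vs 0ND (edgeR adjusted p = 0.0296) and 0.31 ± 0.19 in 8P vs 8ND. Pola1, the catalytic subunit of polymerase alpha, which primes synthesis, had 45.7, 38.5, 51.7, 53.3 and 54.1 CPM in 8P, 47.0, 47.1, 40.3 and 54.7 in 0P, 40.9, 39.2, 41.8, 41.1 and 49.9 in 8ND, and 51.1, 44.8, 39.1 and 37.5 in 0ND. Its 4 groups overlapped, with log2 fold changes of 0.13 ± 0.13 in 0P vs 0ND and 0.19 ± 0.12 in 8P vs 8ND. Pola2, the second subunit of that enzyme, had 28.4, 25.8, 38.2, 27.2 and 27.0 CPM in 8P, 29.4, 35.7, 26.1 and 33.3 in 0P, 24.1, 37.3, 26.8, 34.2 and 29.9 in 8ND, and 28.3, 24.9, 28.8 and 19.9 in 0ND. No group stood apart, and the fold changes were 0.29 ± 0.16 in 0P vs 0ND and -0.05 ± 0.15 in 8P vs 8ND. Pole2, a non-catalytic subunit of polymerase epsilon, had 6.58, 6.31, 11.4, 7.53 and 7.15 CPM in 8P, 5.19, 8.16, 5.76 and 7.28 in 0P, 5.81, 7.93, 7.62, 4.54 and 5.65 in 8ND, and 9.30, 8.11, 5.80 and 6.17 in 0ND. It was among the 3 genes with a fold change below 0 in 0P vs 0ND, at -0.15 ± 0.24, and was at 0.28 ± 0.21 in 8P vs 8ND. Pold1, the catalytic subunit of polymerase delta on the lagging strand, had 5.62, 9.25, 6.17, 7.04 and 6.59 CPM in 8P, 8.54, 10.5, 7.41 and 7.34 in 0P, 7.47, 7.61, 8.59, 8.54 and 9.76 in 8ND, and 9.49, 13.05, 5.80 and 7.80 in 0ND. It lay below 0 in both comparisons, at -0.09 ± 0.22 in 0P vs 0ND and -0.28 ± 0.20 in 8P vs 8ND, with overlapping groups (edgeR adjusted p = 0.807 and 0.321). The primase genes Prim1 and Prim2 were at 0.22 ± 0.18 and 0.07 ± 0.17 in 0P vs 0ND and at 0.26 ± 0.16 and 0.13 ± 0.15 in 8P vs 8ND.

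Fen1 and Lig1, the flap nuclease and the ligase that join Okazaki fragments, were higher in 0P vs 0ND. Lig1 had 43.4, 44.3, 41.4, 56.7 and 41.0 CPM in 8P, 57.6, 56.7, 42.3 and 75.7 in 0P, 35.9, 28.5, 39.8, 23.2 and 48.7 in 8ND, and 34.4, 40.4, 29.0 and 30.8 in 0ND. Its 0P libraries cleared its 0ND libraries, and 8P overlapped 8ND through 8ND 5. Fen1 had 15.1, 20.8, 13.5, 20.2 and 14.8 CPM in 8P, 19.3, 23.5, 20.9 and 31.4 in 0P, 17.0, 12.6, 14.2, 13.6 and 12.8 in 8ND, and 11.6, 16.6, 11.96 and 11.9 in 0ND. Library 0P 4 was its highest and 0ND 2 the highest of its 0ND group, without overlap between them. Log2 fold changes in 0P vs 0ND were 0.79 ± 0.20 for Lig1 and 0.88 ± 0.19 for Fen1 (edgeR adjusted p = 0.00448 and 0.00117), and in 8P vs 8ND 0.36 ± 0.18 and 0.27 ± 0.17 (edgeR adjusted p = 0.145 and 0.250). Rpa2, a subunit of the protein that coats single-stranded DNA, did not pass, at 0.31 ± 0.19 in 0P vs 0ND and 0.21 ± 0.17 in 8P vs 8ND.

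Both genes of ribonucleotide reductase, the enzyme that makes deoxynucleotides, were higher in P on both diets. Rrm1, the large subunit, had 49.9, 55.4, 54.4, 54.4 and 57.3 CPM in 8P, 60.7, 75.2, 62.6 and 66.1 in 0P, 43.7, 38.2, 51.0, 37.6 and 50.2 in 8ND, and 44.9, 47.3, 38.7 and 40.6 in 0ND. Every 0P library lay above every library of the other 3 groups, and 8P overlapped 8ND through 8ND 3 and 8ND 5. Its log2 fold change was 0.63 ± 0.12 in 0P vs 0ND (edgeR adjusted p = 0.00037) and 0.29 ± 0.10 in 8P vs 8ND (edgeR adjusted p = 0.0389). Rrm2 (chr12:24708241-24714146), the small subunit whose level follows S phase, averaged 19.1 ± 2.68 CPM in 8P and 12.4 ± 2.23 CPM in 8ND (SD, n = 5 each), and 21.2 ± 4.78 CPM in 0P and 10.0 ± 3.61 CPM in 0ND (SD, n = 4 each). P and ND did not overlap on either diet, and the log2 fold changes were 1.10 ± 0.22 in 0P vs 0ND and 0.62 ± 0.19 in 8P vs 8ND (edgeR adjusted p = 0.000733 and 0.0221).

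Ccne1 (chr7:38097984-38107534), which encodes cyclin E1 and starts S phase with its kinase, had the largest fold change of the 39 genes in 0P vs 0ND. It had 5.49, 7.29, 4.31, 5.98 and 5.75 CPM in 8P, 5.81, 9.93, 7.41 and 7.84 in 0P, 3.73, 4.52, 4.19, 2.67 and 4.93 in 8ND, and 2.61, 3.70, 3.55 and 1.41 in 0ND. The 0P values were all above the 0ND values, and 0ND 4 was the lowest library. The log2 fold change was 1.48 ± 0.28 in 0P vs 0ND (edgeR adjusted p = 0.000397) and 0.49 ± 0.24 in 8P vs 8ND (edgeR adjusted p = 0.137). Ccne2, its paralog, had 11.8, 7.40, 14.1, 12.4 and 10.8 CPM in 8P, 12.1, 13.3, 10.8 and 10.5 in 0P, 8.02, 6.58, 8.26, 9.08 and 10.2 in 8ND, and 8.09, 5.29, 11.8 and 6.17 in 0ND. It did not pass, at 0.56 ± 0.23 in 0P vs 0ND and 0.43 ± 0.21 in 8P vs 8ND, and its ND libraries were widely spread. E2f1, an activating E2F factor and itself an E2F target, had 7.66, 9.69, 5.93, 9.01 and 8.82 CPM in 8P, 7.40, 9.47, 11.7 and 9.64 in 0P, 12.7, 10.6, 5.26, 13.9 and 11.1 in 8ND, and 6.56, 7.41, 7.46 and 6.82 in 0ND. Its 8ND libraries held both its lowest and its highest values, and its fold changes were 0.43 ± 0.24 in 0P vs 0ND and -0.37 ± 0.21 in 8P vs 8ND (edgeR adjusted p = 0.182 and 0.208).

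Among genes that package new DNA, Chaf1a, the large subunit of chromatin assembly factor 1, had 31.3, 35.7, 30.0, 38.7 and 30.6 CPM in 8P, 35.0, 45.3, 38.0 and 51.0 in 0P, 22.7, 24.3, 22.8, 19.8 and 30.9 in 8ND, and 19.5, 25.7, 22.4 and 22.1 in 0ND. Its 0P libraries cleared 0ND, and 8P met 8ND only at 8ND 5. Log2 fold changes were 0.92 ± 0.15 in 0P vs 0ND and 0.46 ± 0.13 in 8P vs 8ND (edgeR adjusted p = 0.000122 and 0.0147). Chaf1b, its partner, was at 0.88 ± 0.22 in 0P vs 0ND (edgeR adjusted p = 0.00401) and 0.28 ± 0.20 in 8P vs 8ND (edgeR adjusted p = 0.306). Slbp, which binds the stem-loop of histone mRNAs, had 51.2, 47.4, 52.6, 48.8 and 48.0 CPM in 8P, 43.2, 49.3, 50.5 and 44.5 in 0P, 46.2, 47.1, 47.4, 40.6 and 54.0 in 8ND, and 45.8, 49.6, 50.2 and 44.8 in 0ND. It was level, with log2 fold changes of -0.02 ± 0.10 in 0P vs 0ND and 0.07 ± 0.09 in 8P vs 8ND and overlap among all 4 groups.

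**Figure D3:**
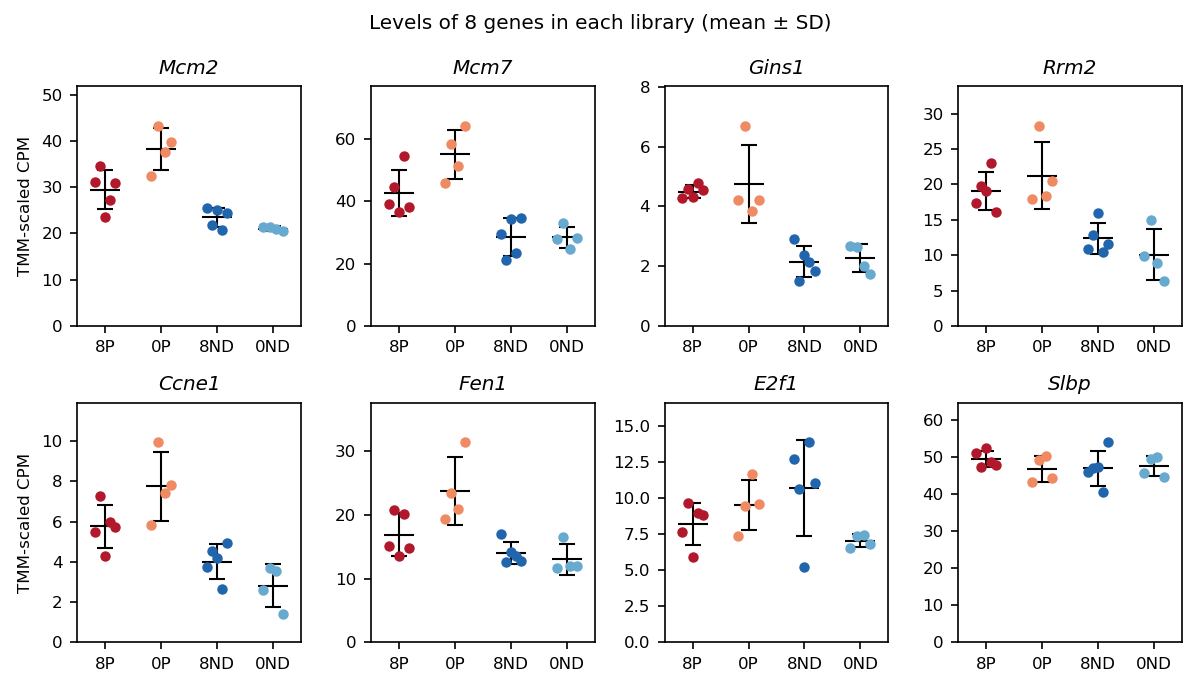
TMM-scaled CPM of 8 genes in each library (points) with the group mean and SD (bars), for 8P and 8ND (n = 5 each) and 0P and 0ND (n = 4 each); each axis starts at 0. Gins1 and Mcm7 in P lie above ND on both diets, Ccne1 and Fen1 do so at 0 mg/kg FA, E2f1 is most spread in 8ND, and Slbp is level.

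The overlap between groups was also counted. All 0P values exceeded all 0ND values for 17 of 39 genes (43.6%), against 16.2% of all tested genes, and all 8P values exceeded all 8ND values for 4 genes (Mcm7, Gins1, Gins3 and Rrm2, 10.3%), against 8.26% of all tested genes. The second share is near that of all genes. Of the 18 calls in 0P vs 0ND, 13 held in each of the other fits and in each fit that left out 1 library. Mcm10 was lost without 0P 2 (edgeR adjusted p = 0.0524), and so were Cdc45, Rfc2 and Pole (0.181, 0.0530 and 0.127). Pole was also lost without 0ND 3 or 0ND 4, Rfc2 without 0ND 3, Cdc45 without 0P 4 or any 0ND library, and Rfc3 without 0ND 1, 0ND 2, 0ND 3, 0P 3 or 0P 4 (edgeR adjusted p up to 0.0745). In 8P vs 8ND, Mcm4, Mcm7, Gins1 and Chaf1a held in each fit that left out 1 library. Mcm2 was lost without 8ND 2, 8ND 4, 8ND 5, 8P 1, 8P 2 or 8P 5, Mcm3 without 8ND 3, 8ND 4 or 8P 4, Rfc3 without 8ND 2, 8ND 3, 8ND 5, 8P 1, 8P 4 or 8P 5, Rrm1 without 8ND 1, 8ND 2, 8ND 4, 8P 2, 8P 3, 8P 4 or 8P 5, and Rrm2 without 8ND 1, 8ND 4, 8ND 5 or 8P 4, with edgeR adjusted p from 0.0502 to 0.115. Without both 8ND 1 and 8ND 2 only Gins1 passed, with a log2 fold change of 1.09 (edgeR adjusted p = 0.00557), while the other 8 genes kept fold changes of 0.22 to 0.58.

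The comparison of 8P with 0P asked whether the FA dose moved these genes inside polyps. Here 0 of 39 genes passed (the smallest edgeR adjusted p was 0.448), where 0.0% of all tested genes passed. A total of 33 of 39 fold changes lay below 0, with a median of -0.21 against 0.01 over all tested genes, of which 50.7% lay above 0. At an unadjusted p under 0.05 there were 7 genes, all lower in 8P (17.9%, against 10.1% of all tested genes in either direction). They were Mcm2, Mcm3, Mcm5, Mcm7, Fen1, Rrm1 and Chaf1a, with log2 fold changes from -0.29 for Rrm1 to -0.50 for Fen1. These counts moved when 1 library was left out. Genes at an unadjusted p under 0.05 then numbered 3 (without 0P 2 or 0P 4) to 13 (without 0P 3). Fold changes above 0 then numbered 2 (without 8P 5) to 10 (without 0P 2). Rrm1 was the 1 gene of 39 (0.89% of all tested genes) whose 8P values, at most 57.3 CPM, all lay below its 0P values, at least 60.7 CPM. Mcm2 had the smallest p, at -0.38 ± 0.12 with edgeR adjusted p = 0.448. The SEs of the 39 fold changes ran from 0.09 to 0.28.

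The same question was asked of epithelium without dysplasia. In 8ND vs 0ND, 0 of 39 genes passed, where 0.0481% of all tested genes did, 26 fold changes lay above 0, and the median was 0.05 against 0.00 over all tested genes. Of all tested genes, 50.6% lay above 0. The single gene with an unadjusted p under 0.05 was E2f1, at 0.59 ± 0.23 with edgeR adjusted p = 0.374, and its groups overlapped because 8ND 3 (5.26 CPM) was its lowest ND library. Ccne1 had 0.55 ± 0.27 and Orc1 0.40 ± 0.23. No gene of the 39 had groups that failed to overlap here, where 2.15% of all tested genes did so higher in 8ND and 1.8% lower. With 39 genes, a count of 0 is near those shares.

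Whether the dose effect differed between P and ND was tested with an interaction term, which is also the test of whether P differed from ND by more on the diet without FA than at 8 mg/kg. None of the 39 genes passed (the smallest edgeR adjusted p was 0.327), where 0.0% of all tested genes passed, so the 18 and 9 calls were not shown to differ. With DESeq2, 6 of all tested genes were higher and 64 lower in the interaction, and without 8ND 3 edgeR called 1 higher and 25 lower, none of them among the 39. The fold changes of the interaction lay below 0 for 32 genes, with a median of -0.33. Over all tested genes the median was -0.01, and 48.8% lay above 0. At an unadjusted p under 0.05 there were 6 genes, Mcm2, Fen1, Rrm1, Ccne1, E2f1 and Chaf1a, all below 0 (15.4%, against 10.4% of all tested genes). Ccne1 was at -0.99 ± 0.36, E2f1 at -0.80 ± 0.32 and Mcm2 at -0.54 ± 0.17. The 4 comparisons share libraries, so their directions are not independent of each other.

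**Figure D4:**
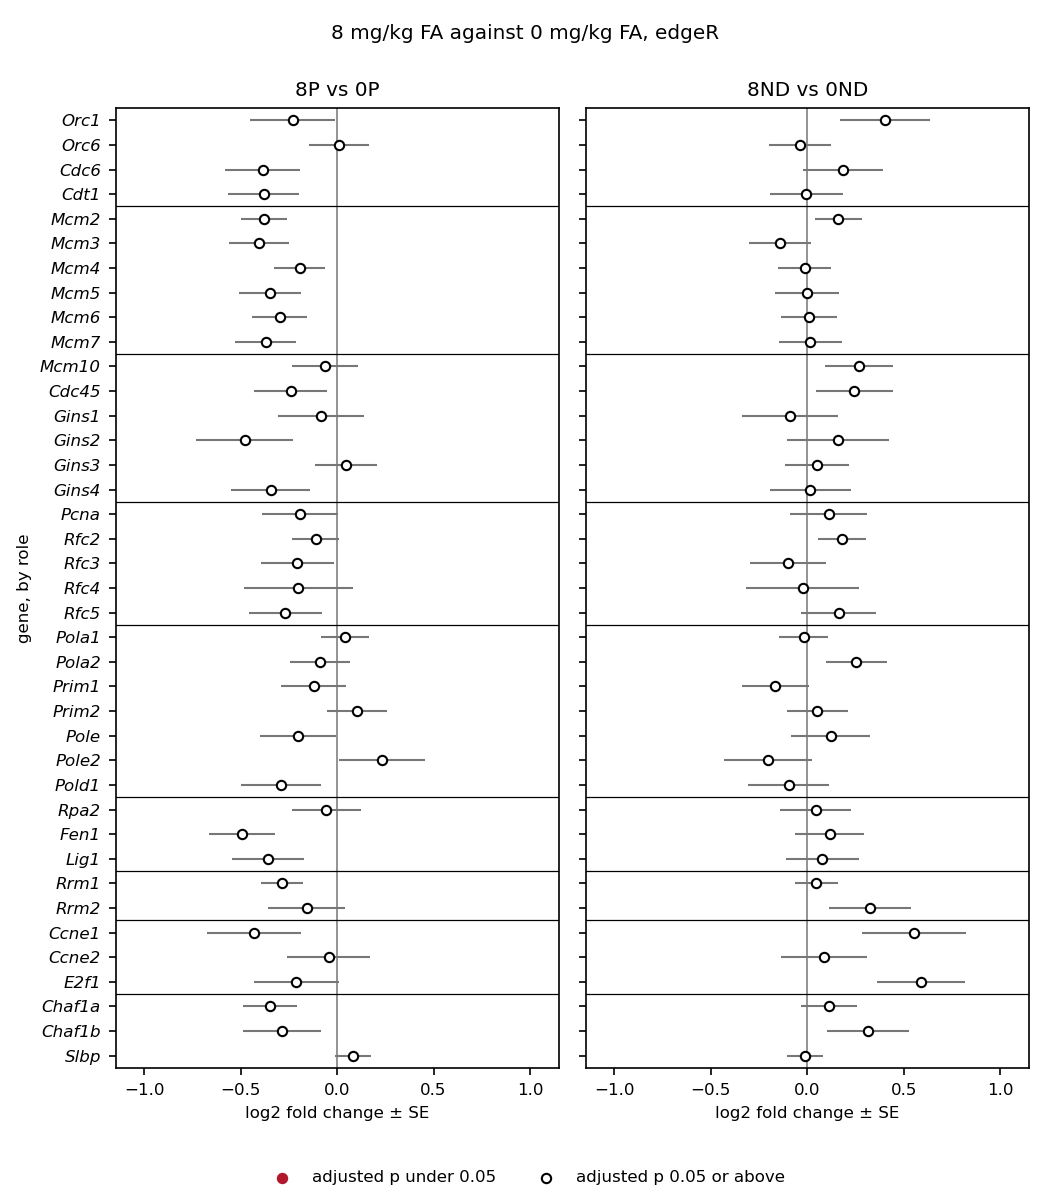
Log2 fold change of each of the 39 genes (points) with its SE (bars), from edgeR, in 8P vs 0P on the left and 8ND vs 0ND on the right, genes by role down the page. No point is filled, since none had an adjusted p under 0.05; on the left 33 points lie below 0 and on the right 26 lie above it.

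Other genes of the pathway were read from lists that are not part of the 39, and each count stands against the shares of all tested genes given above (15.9% higher and 15.7% lower in 0P vs 0ND, 13.9% higher and 14.3% lower in 8P vs 8ND). Of 41 further replication genes, 14 were higher (34.1%) and 1 was lower in 0P vs 0ND, and 11 were higher (26.8%) and 2 lower in 8P vs 8ND. Nasp, a histone chaperone, averaged 96.6 ± 12.8 CPM in 8P and 60.1 ± 4.33 CPM in 8ND, and 105 ± 21.5 CPM in 0P and 62.1 ± 3.03 CPM in 0ND. Its log2 fold changes were 0.76 ± 0.13 in 0P vs 0ND and 0.68 ± 0.12 in 8P vs 8ND, past the threshold in both. Of 11 genes of nucleotide synthesis, 4 were higher (36.4%) and 0 lower in 0P vs 0ND, and 2 higher (18.2%) and 1 lower in 8P vs 8ND. Ctps, which makes CTP, was at 1.27 ± 0.16 in 0P vs 0ND and 0.57 ± 0.14 in 8P vs 8ND (edgeR adjusted p = 1.08e-05 and 0.00541). Tk1, the thymidine kinase of S phase, was lower in P at 8 mg/kg FA, at -0.71 ± 0.16 in 8P vs 8ND (edgeR adjusted p = 0.00296) and -0.06 ± 0.18 in 0P vs 0ND. Dnmt1, which copies methyl marks onto new DNA, was at 0.55 ± 0.12 in 0P vs 0ND (edgeR adjusted p = 0.00169) and 0.18 ± 0.11 in 8P vs 8ND (edgeR adjusted p = 0.223). Of the 3 genes of the maintenance methylation list (Dnmt1, Uhrf1 and Hells), 3 were higher in 0P vs 0ND and 1 in 8P vs 8ND.

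In the E2F and Rb family, 3 of 16 genes (18.8%) were higher and 3 lower in 0P vs 0ND, and 1 (6.25%) was higher and 1 lower in 8P vs 8ND, shares near or below those of all tested genes. E2f3, another activating E2F, was higher, at 0.76 ± 0.11 in 0P vs 0ND and 0.73 ± 0.10 in 8P vs 8ND (edgeR adjusted p = 4.53e-05 and 3.68e-05). Rb1, the retinoblastoma protein that holds E2F in check, was at -0.77 ± 0.13 in 0P vs 0ND and -0.44 ± 0.12 in 8P vs 8ND, lower in P on both diets. Of 7 genes for inhibitors of cyclin-dependent kinases, Cdkn2a and Cdkn1c were higher (28.6%) and Cdkn1b was lower in both comparisons. Cdkn1b, which encodes p27, was at -0.96 ± 0.15 in 0P vs 0ND and -0.53 ± 0.13 in 8P vs 8ND. Of 11 genes for S phase cyclins, kinases and phosphatases, 4 were higher in 0P vs 0ND (36.4%) and 2 in 8P vs 8ND (18.2%), with 0 lower. Cks1b, a kinase subunit that helps degrade p27, was at 1.31 ± 0.22 in 0P vs 0ND and 0.79 ± 0.20 in 8P vs 8ND. Of 35 genes of mitosis and G2/M, 24 were higher in 0P vs 0ND (68.6%) and 14 in 8P vs 8ND (40.0%), with 0 lower and medians of 0.63 and 0.41. No difference between lists was tested. Top2a, the topoisomerase that untangles copied DNA, was at 0.98 ± 0.18 in 0P vs 0ND and 0.67 ± 0.16 in 8P vs 8ND.

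**Figure D5:**
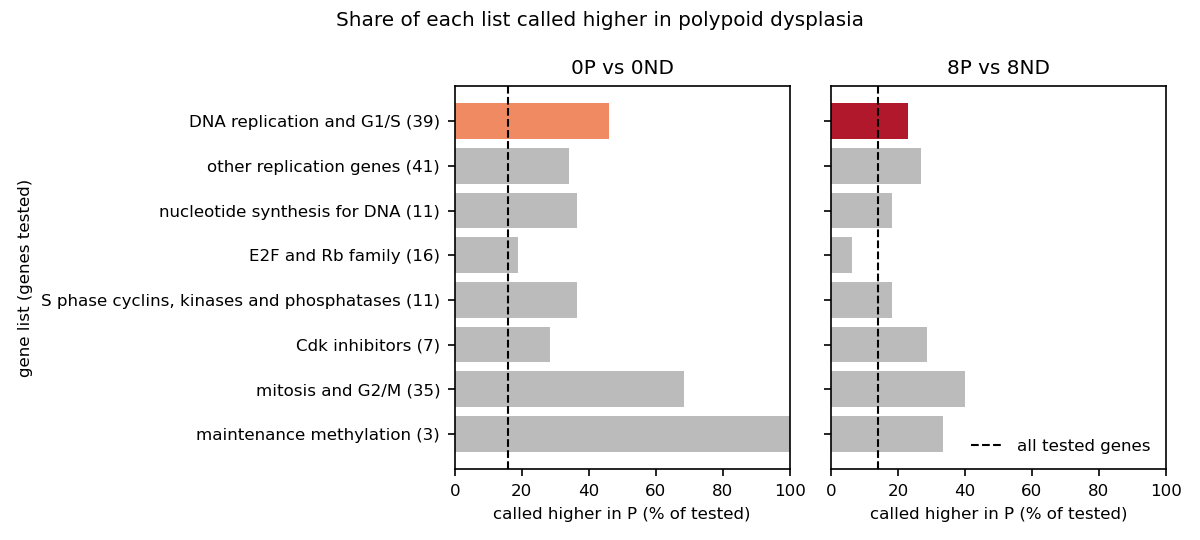
Share of the genes tested in each list (rows, with their number) that were called higher in 0P vs 0ND on the left and in 8P vs 8ND on the right; bars start at 0 and the dashed line is the share of all tested genes, 15.9% and 13.9%. The 39 genes stand at 46.2% and 23.1%, and the mitosis and G2/M list at 68.6% and 40.0%.

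Genes that mark the cells inside the laser outline also moved, against the same shares of all tested genes, and their part in these results was not tested. In bulk tissue, fewer cells of a type and less RNA per cell cannot be told apart. The sums of marker lists below are CPM of library totals without TMM scaling, while values of single genes are TMM-scaled. Of 10 genes on the epithelial list, 5 were lower and 1 was higher in 0P vs 0ND, and 7 lower and 1 higher in 8P vs 8ND, with Krt20, Vil1, Cdx1, Cdx2 and Lgals4 lower in both and sums of 3148 to 3802 CPM in 8P and 3805 to 5665 CPM in 8ND, and 3347 to 4855 CPM in 0P and 4326 to 5546 CPM in 0ND. Epcam and Cdh1 of that list were not called in either comparison and lay between 423 and 994 CPM in every library. Absorptive colonocyte markers were lower for 10 of 12 genes in each of the 2 comparisons of P with ND, and their sum was 292 to 390 CPM in 8P and 957 to 1629 CPM in 8ND, and 200.1 to 643 CPM in 0P and 1600 to 2779 CPM in 0ND. Goblet cell markers were lower for 8 of 8 in both comparisons, with sums of 756 to 3825 CPM in 8P and 11865 to 18774 CPM in 8ND, and 1611 to 3511 CPM in 0P and 7903 to 9823 CPM in 0ND. Colonic stem cell markers were higher for 10 of 11 tested in 0P vs 0ND and 9 of 11 in 8P vs 8ND, with sums of 2115 to 2276 CPM in 8P and 657 to 1304 CPM in 8ND, and 1704 to 2135 CPM in 0P and 478 to 649 CPM in 0ND. Smooth muscle markers were lower for 8 of 8 in both comparisons, with sums of 277 to 636 CPM in 8P and 1088 to 1845 CPM in 8ND, and 386 to 761 CPM in 0P and 1078 to 2701 CPM in 0ND. Fibroblast and matrix markers were higher for 8 of 10 and lower for 1 in 0P vs 0ND, and higher for 2 and lower for 0 in 8P vs 8ND, with sums of 1640 to 4075 CPM in 8P and 1896 to 2156 CPM in 8ND, and 2509 to 3223 CPM in 0P and 1438 to 1594 CPM in 0ND. B and plasma cell markers were lower for 3 of 10 genes in 0P vs 0ND and for 6 of 10 in 8P vs 8ND, with 0 higher. They summed to 607 to 3554 CPM in 8P and 4181 to 10120 CPM in 8ND, and to 1143 to 1623 CPM in 0P and 2830 to 5298 CPM in 0ND. In 4 of the 5 8ND libraries that sum exceeded the epithelial sum, most of all in 8ND 3 (10120 and 5665 CPM). The B and plasma cell list holds the immunoglobulin genes Igha, Ighm and Igkc, and also Xbp1, which secretory epithelium expresses too. Macrophage and dendritic markers were higher for 3 of 11 in 0P vs 0ND and for 0 in 8P vs 8ND, neutrophil markers for 4 of 6 tested in both with 1 lower in both, and endothelial markers for 1 of 8 and 0 of 8 with 2 lower in both. T and NK cell markers were higher for 1 of 9 tested in both, lower for 2 in 0P vs 0ND and for 1 in 8P vs 8ND, and summed to 101 CPM or less in every library. Of the markers of these lists, the neutrophil gene Elane was at 0 in every library.

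Exon bases are shared with other genes for 15 of the 39 genes, nearly all on the opposite strand, and the strand setting used in counting is not given in the sources used here. Chaf1a, Fen1 and Gins2 share over 50% of their exon bases, with Ubxn6 (52.5%), Gm10143 (78.8%) and Gse1 (67.3%). If reads were counted without strand, those on the shared bases could not be assigned to 1 gene of a pair. Reads counted as ambiguous, 0.220 to 0.384% of all reads, were kept apart from the gene counts. If the shared reads are among them, they are missing from both genes. Ubxn6 was at -0.15 ± 0.17 and Gm10143 at -0.02 ± 0.37 in 0P vs 0ND, and neither passed, while Gse1, at 89.6 CPM far above the 6.69 CPM of Gins2, was lower, at -0.55 ± 0.13. Without those 3 genes the counts of calls were 16 in 0P vs 0ND and 8 in 8P vs 8ND.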

How the data were processed

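RNA-Seq was run on 18 libraries of laser-microdissected colonic epithelium from fixed, embedded tissue (40 ng of total RNA each, stranded low-input kit). Per the labels and methods, the authors aligned reads to mm10 with Bowtie and counted them per gene with HTSeq, and the deposited values are raw counts per gene. The strand setting and the versions of these tools were not given in the sources used here. The 5 summary lines of each table were left out of totals. Of all reads in the tables, 22.0 to 40.7% lay outside genes, 40.1 to 62.2% were not uniquely placed and 0.220 to 0.384% were ambiguous. Total counts on genes were 3500947 to 17048524 (median 10292934.5). No replicate pair agreed within sampling noise, and each library counted as 1 sample.

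Genes kept by filterByExpr (minimum count 10) were tested in edgeR 4.0.16 (R 4.3.3; TMM, quasi-likelihood, robust, 1 mean per group, all 18 libraries in 1 fit), with Benjamini-Hochberg adjustment over the 20787 genes and a threshold of 0.05. The SE of a log2 fold change was its size divided by the square root of F. Heat map values used a pseudocount of 0.5. The steps were tested on simulated data. Alternatives were RLE scaling, library totals, DESeq2 1.42.0, limma-voom 3.58.1, no filter, a minimum count of 50, only the 2 groups compared, a replicate block, and leaving out libraries. Exon overlaps and exon lengths came from GENCODE and promoter sequences from RefSeq (GRCm38.p6).

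The 39 genes and the other lists were chosen with earlier results of these data known. Values in each library are given for 24 of the 39 genes by a rule, and for Mcm7, which the rule does not cover. Within each role the rule takes the gene with the highest mean CPM and the gene with the smallest p in a comparison of P with ND. Over all 39 it takes the 3 smallest p in 8ND vs 0ND, in 8P vs 0P and in the interaction, and the genes with a fold change below 0 in a comparison of P with ND. Of each pathway list, up to 4 genes with the smallest p were eligible to be named. Choices of examples among these, and of the genes drawn by library, were made after their values were seen.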

Additional observations from a re-analysis of the deposited data

Results flagged for a closer look

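Within each group of 4 or 5 libraries, the highest and the lowest value of the 24 genes given by library under the rule above was set against the others by Dixon's gap test. Of 96 groups, 8 held a library that stood apart, where chance gives about 4.8. Orc1 was at 10.9 CPM in 8ND 4, against 6.06 to 6.98 CPM in the other 8ND libraries. Gins1 was at 6.70 CPM in 0P 2, against 3.84 to 4.23 CPM in the other 0P libraries. Pola1 was at 49.9 CPM in 8ND 5, against 39.2 to 41.8 CPM in the rest of its group. In 8P 3, Pola2 was at 38.2 CPM and Pole2 at 11.4 CPM, where the other 8P libraries had 25.8 to 28.4 CPM and 6.31 to 7.53 CPM. Mcm10 was low in 8P 1, at 18.3 CPM, against 20.97 to 22.0 CPM in the other 8P libraries. Lig1 was at 56.7 CPM in 8P 4, against 41.0 to 44.3 CPM elsewhere in 8P. Fen1 was at 16.6 CPM in 0ND 2, against 11.6 to 11.96 CPM in the other 0ND libraries. Library 8ND 4 had the fewest counts (3500947), and the part of depth in its value was not tested.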

How the results depend on the processing

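The 18 calls in 0P vs 0ND became 15 to 22 under the other settings with all libraries, and 14 (without 0P 2) to 20 when 1 library was left out. The 9 calls in 8P vs 8ND became 6 to 10 with all libraries, 5 (without 8P 4) to 8 when 1 library was left out, and 1 without both 8ND 1 and 8ND 2; without 8ND 3, 1 gene (E2f1) was lower in 8P vs 8ND. Numbers of genes called among all tested genes changed more. In 8ND vs 0ND the 10 genes became 313 with DESeq2, 4 with limma-voom, 41 with no filter, 28 with the replicate block, 0 without both 8ND 1 and 8ND 2, and 2 to 157 when 1 library was left out (157 without 8ND 3). In 8P vs 0P the count of 0 became 2 with RLE scaling, 1 with library totals, 12 with DESeq2, 2 with no filter, 3 with the replicate block, 3 without both 8ND 1 and 8ND 2, and 0 to 5 when 1 library was left out. In the interaction the count of 0 became 6 higher and 64 lower with DESeq2, 1 with no filter, 1 higher and 25 lower without 8ND 3 and 2 without 0P 1, and stayed at 0 elsewhere. The cause of these changes was not tested. None of the 39 genes was called in 8ND vs 0ND, 8P vs 0P or the interaction under any of these settings. TMM scaling computed without the 39 genes and the pathway lists, chosen after seeing the data, left the counts at 18 and 9. Over single genes, 66 values lost and 29 gained their call under a setting and 0 reversed.

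Replicate numbers of ND and P within a diet were checked as pairs: over 9 pairs the correlation of deviations from the group mean ran from -0.08 to 0.27, 4 pairs were over 0.1, and 4 of 9 libraries correlated best with their own number, so the numbers were not taken as pairs. With the replicate block, 17 genes were called in 0P vs 0ND and 7 in 8P vs 8ND. The lowest count of a replication gene followed here was 6 reads in a library, for Rfc4. Gins1, the lowest of these genes by mean CPM (3.41), had as few as 8 reads in a library. Such low counts limit what can be said of Rfc4 and of Gins1, although Gins1 was called in 0P vs 0ND and in 8P vs 8ND.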
